A study of Homo sapiens with 16 samples.

Results

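The genes described here encode the subunits of RNA polymerases I, II and III, chosen by symbols that start with POLR1, POLR2 or POLR3 followed by a letter. The 30 described are among 18079 genes in the count table. Of these, 5 belong to polymerase I alone, 9 to polymerase II alone and 9 to polymerase III alone, while 2 are shared by polymerases I and III and 5 by all 3 enzymes. The genes were chosen by name, not by measured values. POLR2A and POLR1H, a catalytic subunit of polymerase II and a small subunit of polymerase I, were not analysed here.

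HL60 is a human leukaemia line of promyelocytic cells. The cells were kept for 5 h with 50 nM SY-351, which inhibits the kinase CDK7, or with its solvent DMSO. Their polyadenylated RNA was sequenced. The SY351 group and the DMSO group each held 4 numbered replicates of unmodified HL60 cells, and 2 technical repeats were listed for every replicate, which makes 16 records behind 8 count columns. The labels do not call the replicates separate cultures, and the p-values therefore reflect the spread between the libraries at hand, which may be technical.

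RNA polymerase I makes the large ribosomal RNA precursor, polymerase II makes messenger RNA precursors, and polymerase III makes transfer RNAs and other short RNAs. Each enzyme is built on a pair of large catalytic subunits with a common core of small subunits, and each adds a stalk and peripheral subunits of its own. CDK7 is the kinase of the general factor TFIIH, which phosphorylates the C-terminal tail of the largest polymerase II subunit as transcription starts. The mRNAs of all these subunits, those of polymerases I and III included, are themselves made by polymerase II. Proteins, polymerase activity and the RNAs made by polymerases I and III were not measured.

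The SY351 libraries held 43.3 to 77.9 M counts and the DMSO libraries 103.7 to 124.2 M, at which 3 counts equal 0.0241 to 0.0693 CPM, the unit of counts relative to the library total. DMSO 1 and 2 stood apart: their log CPM correlated across genes at r = 0.979 with each other, DMSO 3 and 4 at 0.986, and the pairs with each other only at 0.759 to 0.792. The SY351 libraries correlated at 0.935 to 0.953 with DMSO 3 and 4 and at 0.725 to 0.757 with DMSO 1 and 2. The labels name no batch that separates the pairs. Subunit results are therefore given against all 4 DMSO libraries and against each pair alone, a split made after the data were seen. The 5 promyelocytic markers used (MPO, CTSG, CD33, CEBPE and SPI1) were detected in every library. Their summed level was 29317 to 33735 CPM in SY351, 12820 to 16685 in DMSO 3 and 4, and 45402 to 52081 in DMSO 1 and 2. MPO alone had 28258 to 32719 CPM in SY351. CTSG had 586 to 670 CPM and CD33 74.9 to 80.3 CPM in SY351, within 19.4 to 670 and 3.1 to 86.4 over all libraries. CEBPE had 66.4 to 74.9 CPM and SPI1 284 to 313 CPM in SY351, within 66.4 to 1329 and 272 to 2689. ELANE, PRTN3 and AZU1, planned as well, were not used. The 7 markers of other cells summed to 25.7 to 28.2 CPM in SY351 against 1.51 to 16 in DMSO, of which PECAM1, which myeloid cells also express, made up 20.7 to 23.5 in SY351, and none was at 0 in all libraries of a group. The part of these differences in the results below was not tested.

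Of the 30 genes, 29 were tested, each with at least 10 counts in every library. POLR2M, which encodes a protein that binds polymerase II and limits its initiation, had 0 counts in all 8 libraries, and its interval lies within that of GCOM1 on the same strand. Tests used edgeR with the Benjamini-Hochberg adjustment over all genes, at an adjusted p below 0.05, and CPM are TMM-scaled. TMM factors were 1.02 to 1.07 in SY351, against 1.61 and 1.21 in DMSO 3 and 4 and 0.661 and 0.657 in DMSO 1 and 2. CPM are not divided by gene length, so levels are compared between libraries and not between genes.

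Against all 4 DMSO libraries 5 subunit mRNAs were lower with SY-351 and 1 was higher, out of 29. All 5 that fell belong to polymerase I alone or polymerase III alone, namely POLR1A, POLR1F, POLR3C, POLR3D and POLR3E. The one that rose, POLR2J2, is a copy of a polymerase II subunit gene. The share that fell, 17.2%, stands beside 13.6% of all 15472 genes tested, and the share that rose, 3.45%, beside 2.91%. The median log2 fold of SY351 over DMSO was -0.32 over the 29 subunits and 0.00 over all genes. Without any 1 of the SY351 libraries only POLR3D was still called lower, without SY351 2 or 3 none was called higher, and with library totals in place of TMM scaling 2 were lower and 2 higher. Levels are relative to the other mRNAs of a library, and in bulk RNA fewer cells with an mRNA cannot be told apart from less of it per cell.

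**Figure D1:**
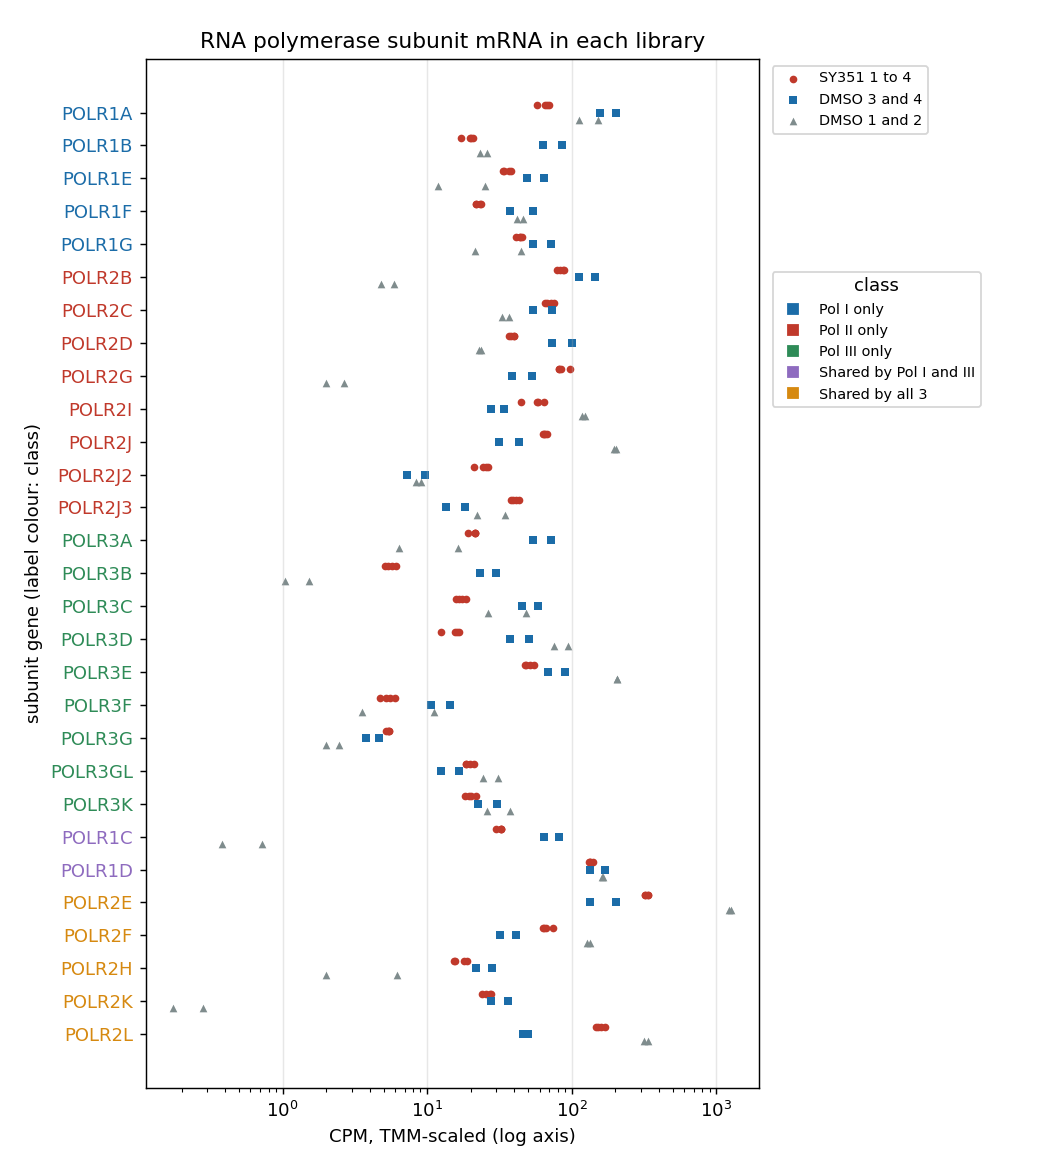
TMM-scaled CPM of the 29 tested subunit genes on a log axis, 1 point per library, with SY351 as circles above, DMSO 3 and 4 as squares and DMSO 1 and 2 as triangles. The 4 SY351 points lie close together for each gene, while the DMSO pairs differ widely for genes such as POLR1C, POLR2G and POLR2K.

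By enzyme, 2 of the 5 polymerase I genes and 3 of the 9 polymerase III genes fell, and neither set had a gene that rose. Of the 8 tested polymerase II genes 0 fell and 1 rose. Among all genes tested 13.6% fell and 2.91% rose, and at that share sets this small often hold no gene that rose. Neither of the 2 genes shared by polymerases I and III passed the test, nor did any of the 5 shared by all 3 enzymes. The median log2 fold was -0.99 for polymerase I, 0.42 for polymerase II, -0.89 for polymerase III, -0.21 for the genes shared by I and III, and -0.25 for those shared by all 3. The differences between these classes were not tested.

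With DMSO 3 and 4 as the only controls 16 subunit mRNAs fell and 9 rose, beside 26.4% lower and 21.9% higher among all 15811 genes tested. Every polymerase I gene fell (5 of 5, with a median log2 fold of -0.99) and 7 of the 9 polymerase III genes did, with a median of -1.20. Of the 8 polymerase II genes 2 fell and 5 rose, and the median was 0.85. Among the genes shared by all 3 enzymes 1 fell and 3 rose, with a median of 0.90. Scaled by library totals in place of TMM, the median over all genes moved to -0.45 on the log2 scale, and 19 subunits were lower and 8 higher, beside 43.3% lower and 13.1% higher among all genes under that scaling. Under that scaling POLR2C and POLR3G turned direction, while all 5 polymerase I genes and the same 7 polymerase III genes were still lower.

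With DMSO 1 and 2 as the only controls 14 subunits fell and 11 rose, beside 38.4% lower and 40.8% higher (79.2% in either direction) among 15618 genes. By class, 3 polymerase I genes fell and 1 rose (median log2 fold -0.48), 2 polymerase II genes fell and 5 rose (0.73), and 5 polymerase III genes fell and 2 rose (-0.64). Of the genes shared by polymerases I and III 1 fell and 1 rose (2.65), and of those shared by all 3 enzymes 3 fell and 2 rose (-1.11), so that the median of the common subunits had the opposite sign to that against DMSO 3 and 4. The calls against the pairs opposed each other for 12 genes: POLR1C, POLR1E, POLR2B, POLR2D, POLR2E, POLR2F, POLR2H, POLR2I, POLR2J, POLR2L, POLR3B and POLR3GL. These are 41.4% of the 29, beside 15.7% of the 15549 genes tested against both pairs. All 29 had at least 10 counts in every library, which was not required of the 15549. The shares were not compared among genes of like level. A further 8 genes passed the test against only 1 of the pairs, and the share of all genes with this pattern was not counted. Among all genes 48.3% passed in either direction against DMSO 3 and 4, and 79.2% against DMSO 1 and 2. Lower against both pairs were 7 genes, all of polymerase I alone or III alone: POLR1A, POLR1B, POLR1F, POLR3C, POLR3D, POLR3E and POLR3K. They are 24.1% of the 29, beside 16.6% of all genes. Higher against both were 2 (6.9%, beside 12% of all genes), POLR2G and POLR2J2. The comparisons with the pairs share the SY351 libraries. In the same 7 genes every SY351 library lay below every DMSO library, a pattern seen in 18.2% of all genes tested. POLR2G, POLR2J2, POLR2J3 and POLR3G lay above every DMSO library, beside 15.5% of all genes.

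**Figure D2:**
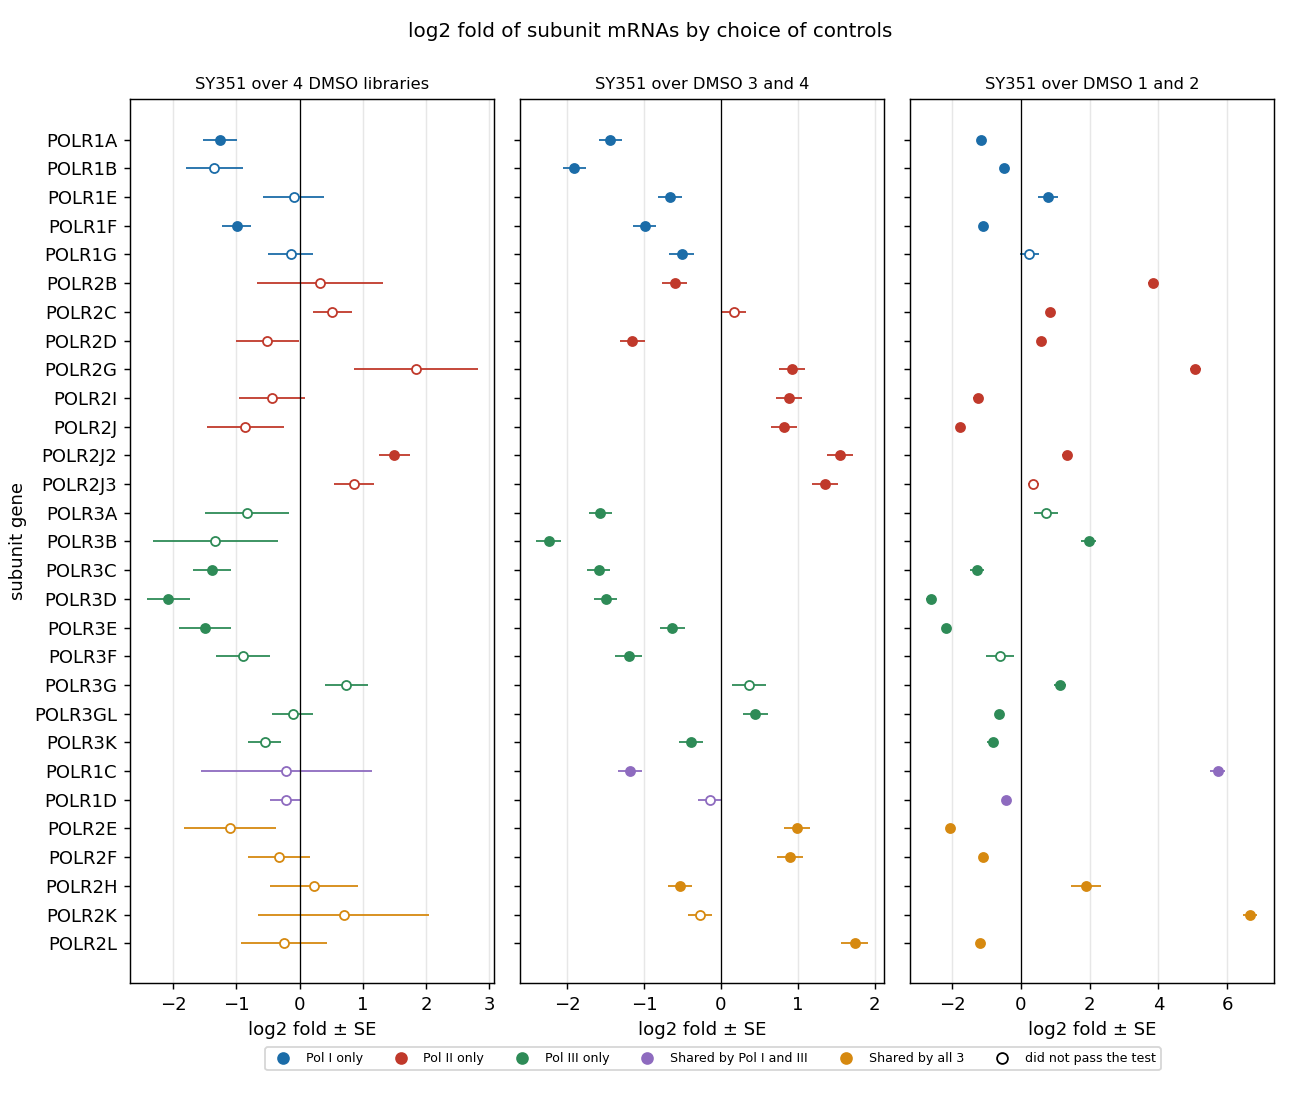
Log2 fold of SY351 over DMSO with its SE for the 29 tested subunit genes, against all 4 DMSO libraries, DMSO 3 and 4 alone and DMSO 1 and 2 alone (edgeR). Filled points passed the test. POLR1A, POLR1F, POLR3C, POLR3D and POLR3E are filled and left of 0 in each panel, while POLR2E and POLR2L change sides between the 2 pairs.

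POLR1A, the largest catalytic subunit of polymerase I (GRCh38 chromosome 2, 86020215 to 86105886, minus strand), had 65.9, 68.0, 70.1 and 57.9 CPM in SY351 1 to 4, against 152, 113, 156 and 204 CPM in DMSO 1 to 4. All SY351 libraries were lower, with no overlap. The log2 fold was -1.26 ± 0.27 (SE, adjusted p = 0.0189, edgeR, 4 libraries each), -1.44 ± 0.15 against DMSO 3 and 4 and -1.16 ± 0.12 against DMSO 1 and 2. POLR1B, the second largest subunit, which forms the active centre with POLR1A (chromosome 2, 112542035 to 112577152, plus strand), had 20.0, 20.8, 19.9 and 17.1 CPM in SY351 and 25.8, 23.4, 63.6 and 85.1 CPM in DMSO. SY351 lay below all DMSO libraries, but DMSO 1 and 2 came close. Its log2 fold of -1.35 ± 0.45 missed the threshold (adjusted p = 0.0763), while it was -1.91 ± 0.15 against DMSO 3 and 4 and -0.48 ± 0.11 against DMSO 1 and 2, both past it.

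POLR1F, a subunit of the polymerase I stalk through which the enzyme meets its initiation factor (chromosome 7, 19695460 to 19709037, minus strand), had 21.7, 23.7, 23.4 and 21.7 CPM in SY351, against 42.2, 46.3, 37.6 and 53.8 CPM in DMSO. The 4 DMSO libraries were close to each other for this gene. Its log2 fold of -0.99 ± 0.23 (adjusted p = 0.0232, edgeR) was -0.99 ± 0.15 against DMSO 3 and 4 and -1.11 ± 0.10 against DMSO 1 and 2. POLR1E and POLR1G form a pair of peripheral subunits that aids initiation and elongation. POLR1E ranged over 33.6 to 37.9 CPM in SY351 and 11.9 to 64.8 CPM in DMSO, and POLR1G over 41.2 to 45.0 CPM in SY351 and 21.4 to 71.6 CPM in DMSO. Both lay inside the DMSO range. They were lower against DMSO 3 and 4, with log2 folds of -0.66 and -0.51, while against DMSO 1 and 2 POLR1E was higher by 0.79 and POLR1G, at 0.25, did not pass the test. The calls of POLR1A and POLR1F were lost when any 1 SY351 library was left out, with adjusted p up to 0.0892 and 0.111.

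POLR3A, the largest catalytic subunit of polymerase III (chromosome 10, 77975148 to 78029515, minus strand), had 21.3, 21.4, 21.4 and 19.3 CPM in SY351, against 16.4, 6.43, 53.8 and 72.1 CPM in DMSO. SY351 lay between the DMSO pairs. The log2 fold was -0.83 ± 0.66 against all 4 (adjusted p = 0.415, edgeR), -1.57 ± 0.15 against DMSO 3 and 4 (past the threshold) and 0.73 ± 0.34 against DMSO 1 and 2 (not past it). POLR3B, its partner in the active centre (chromosome 12, 106357747 to 106510198, plus strand), had 6.05, 5.14, 5.33 and 5.68 CPM in SY351 and 1.52, 1.04, 23.3 and 29.8 CPM in DMSO. It too lay between the pairs, with the lowest log2 fold of any subunit against DMSO 3 and 4, -2.24 ± 0.16, and a rise of 1.97 ± 0.22 against DMSO 1 and 2. Against all 4 it was -1.33 ± 0.99, which did not pass the test.

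POLR3C, which with POLR3F and POLR3G or POLR3GL forms the subcomplex that opens the promoter and meets the initiation factor TFIIIB (chromosome 1, 145824199 to 145844401, plus strand), had 15.9, 17.3, 16.5 and 18.6 CPM in SY351, against 48.3, 26.4, 45.6 and 58.9 CPM in DMSO. The groups did not overlap. Its log2 fold was -1.39 ± 0.30 (adjusted p = 0.0175, edgeR), -1.59 ± 0.15 against DMSO 3 and 4 and -1.27 ± 0.21 against DMSO 1 and 2. The call against all 4 was lost when any 1 SY351 library was left out, at adjusted p up to 0.0855. POLR3F had 4.75 to 6.03 CPM in SY351 and 3.54 to 14.4 CPM in DMSO, so that only DMSO 2 was below SY351. It was lower against DMSO 3 and 4, by a log2 fold of -1.20 ± 0.18, and did not pass the test against all 4 (-0.89 ± 0.43) or against DMSO 1 and 2 (-0.60 ± 0.40).

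POLR3D and POLR3E form a dimer needed for termination and for starting again on the same gene. POLR3D had 15.6, 16.6, 16.2 and 12.5 CPM in SY351, against 74.9, 94, 37.2 and 50.5 CPM in DMSO. It was the lowest of all subunits in the test against 4 controls, at a log2 fold of -2.08 ± 0.34 (adjusted p = 0.00804, edgeR), and -1.5 ± 0.15 against DMSO 3 and 4 and -2.62 ± 0.13 against DMSO 1 and 2. Of the 6 subunits called against all 4 controls, POLR3D alone passed the test with each of the 8 libraries left out in turn, at adjusted p up to 0.0481. POLR3E (chromosome 16, 22297374 to 22335103, plus strand) had 51.5, 54.8, 48.3 and 47.4 CPM in SY351, against 205, 205, 69.0 and 89.4 CPM in DMSO. Both DMSO pairs were above SY351, DMSO 1 and 2 the more so, and the log2 fold was -1.49 ± 0.41 (adjusted p = 0.0410), -0.63 ± 0.16 against DMSO 3 and 4 and -2.17 ± 0.08 against DMSO 1 and 2. Its call was kept in 2 of the 8 leave-one-out tests, those without DMSO 3 or without DMSO 4, at adjusted p up to 0.132 in the others, and was lost without a filter on low counts.

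POLR3K, which cleaves the nascent RNA and takes part in termination, had 18.3 to 21.7 CPM in SY351 and 22.5 to 37.6 CPM in DMSO. It did not pass the test against all 4 (-0.55 ± 0.26), and its log2 fold was -0.39 ± 0.16 against DMSO 3 and 4 and -0.82 ± 0.15 against DMSO 1 and 2, past the threshold in both.

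The promoters of POLR3A and POLR3C are shown because both genes were lower against DMSO 3 and 4 and both windows hold the same pair of motifs. RefSeq (GRCh38.p14) gave a window of 300 bases, 250 before the start and 50 after it, for 22 of the 30 genes. Motifs were searched on both strands and stand in capitals: CACGTG, the E-box bound by MYC and USF proteins, and CCGGAAG, a core bound by ETS factors, which do not overlap each other here. POLR3A is at chr10:78029466-78029765, minus strand, and POLR3C at chr1:145823950-145824249, plus strand.
POLR3A: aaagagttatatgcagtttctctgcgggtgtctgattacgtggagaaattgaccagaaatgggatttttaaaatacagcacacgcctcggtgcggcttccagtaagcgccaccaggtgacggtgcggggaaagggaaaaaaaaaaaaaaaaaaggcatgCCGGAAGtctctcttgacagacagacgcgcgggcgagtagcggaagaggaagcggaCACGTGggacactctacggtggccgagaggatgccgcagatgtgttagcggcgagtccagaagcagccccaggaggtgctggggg
POLR3C: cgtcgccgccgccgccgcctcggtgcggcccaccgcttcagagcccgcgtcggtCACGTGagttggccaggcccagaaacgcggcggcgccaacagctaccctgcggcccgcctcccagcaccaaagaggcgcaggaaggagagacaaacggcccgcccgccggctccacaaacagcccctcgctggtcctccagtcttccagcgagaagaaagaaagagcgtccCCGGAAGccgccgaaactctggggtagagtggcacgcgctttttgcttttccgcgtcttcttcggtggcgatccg
CACGTG was in 4 of the 22 subunit windows (18.2%), those of POLR1G, POLR3A, POLR3C and POLR3E, and in 7.23% of all 34935 windows. CCGGAAG was in 9 of the 22 (40.9%) and in 10.2% of all windows. Of its carriers POLR1B, POLR1C, POLR2D, POLR3A and POLR3C were lower against DMSO 3 and 4, and POLR2F and POLR2J2 were higher. The carrier POLR2C did not pass that test, and POLR2M was not tested. Each subunit entered only with the window nearest its counted start, while the 34935 windows cover every listed start of any gene, tested or not. The shares are thus of unlike sets. A match is a description of the letters and does not show a bound site.

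POLR3G and POLR3GL are alternative forms of the same polymerase III subunit, of which POLR3G is known from stem cells and tumour lines and POLR3GL from most tissues. POLR3G had 5.47, 5.39, 5.16 and 5.45 CPM in SY351 and 2.00, 2.44, 3.76 and 4.66 CPM in DMSO. POLR3GL had 21.1, 19.9, 18.7 and 18.6 CPM in SY351 and 24.5, 30.7, 12.5 and 16.6 CPM in DMSO. POLR3G lay above all DMSO libraries and POLR3GL inside their range. Neither passed the test against all 4 controls, with log2 folds of 0.74 ± 0.34 and -0.11 ± 0.33. POLR3GL was higher against DMSO 3 and 4 (0.45 ± 0.16) and lower against DMSO 1 and 2 (-0.64 ± 0.12), and POLR3G passed the test only against DMSO 1 and 2 (1.13 ± 0.17). Of the counts of both genes, POLR3G took 20.6, 21.3, 21.6 and 22.7% in SY351 and 7.55, 7.35, 23.2 and 22.0% in DMSO. SY351 was thus close to DMSO 3 and 4, and DMSO 1 and 2 stood apart. The log2 ratio of POLR3G to POLR3GL averaged -1.77 ± 0.07 in SY351 and -2.52 ± 0.98 in DMSO (SD, n = 4 each). The difference of 0.74 did not pass a two-sided exact permutation test (p = 0.4, smallest possible 0.0286).

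POLR2B, the second largest subunit of polymerase II, which forms the active centre with the POLR2A protein (chromosome 4, 56978895 to 57031158, plus strand), had 82.9, 88.4, 86.7 and 78.6 CPM in SY351, against 4.82, 5.92, 113 and 146 CPM in DMSO. DMSO 1 and 2 were far below and DMSO 3 and 4 above SY351. The log2 fold was 0.32 ± 1.00 against all 4 (adjusted p = 0.847, edgeR), -0.60 ± 0.16 against DMSO 3 and 4 and 3.83 ± 0.13 against DMSO 1 and 2. POLR2D and POLR2G form the polymerase II stalk. POLR2D had 37.0 to 40.0 CPM in SY351 and 22.7 to 101 CPM in DMSO, and was lower against DMSO 3 and 4 (-1.15 ± 0.16) and higher against DMSO 1 and 2 (0.60 ± 0.09). POLR2G had 82.1 to 97.6 CPM in SY351, 38.9 and 53.5 CPM in DMSO 3 and 4, and 2.67 and 2.00 CPM in DMSO 1 and 2. It was above every DMSO library, with a log2 fold of 0.93 ± 0.17 against DMSO 3 and 4 and 5.07 ± 0.16 against DMSO 1 and 2, but at 1.84 ± 0.98 it did not pass the test against all 4. The partners in the stalk thus moved in opposite directions against DMSO 3 and 4.

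POLR2C and POLR2J form the assembly platform of polymerase II, and POLR2I is a small subunit that helps fidelity and cleavage. POLR2C had 65.7 to 75.1 CPM in SY351 and 33.0 to 72.6 CPM in DMSO, and passed the test only against DMSO 1 and 2 (0.86 ± 0.10). POLR2J had 63.1 to 67.8 CPM in SY351 against 31.6 to 203 CPM in DMSO, and POLR2I had 44.7 to 64.1 CPM in SY351 against 27.8 to 124 CPM in DMSO. Both lay between the pairs: log2 folds against DMSO 3 and 4 were 0.82 and 0.89, and against DMSO 1 and 2 they were -1.76 and -1.25. The near-identical copies of POLR2J on chromosome 7 were higher against DMSO 3 and 4, POLR2J2 by a log2 fold of 1.55 ± 0.17 and POLR2J3, with 37.9 to 43.4 CPM in SY351 and 13.6 to 34.6 CPM in DMSO, by 1.36 ± 0.17. POLR2J3 did not pass the test against all 4 (0.86 ± 0.32) or against DMSO 1 and 2 (0.36 ± 0.16). POLR2J2 (102636747 to 102671735, minus strand) had 24.3, 25.7, 26.4 and 21.0 CPM in SY351, against 9.07, 8.33, 7.25 and 9.64 CPM in DMSO. The groups did not overlap, the log2 fold was 1.5 ± 0.25 (adjusted p = 0.00828, edgeR), and it was 1.34 ± 0.13 against DMSO 1 and 2. The call was lost without SY351 2 or without SY351 3, at adjusted p up to 0.0511. POLR2J2 overlaps UPK3BL1 on the same strand and reads can be split among the copies, so the values of these genes are uncertain.

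Of the subunits shared by polymerases I and III, which form the platform that POLR2C and POLR2J form in polymerase II, POLR1D had steady levels and POLR1C did not. POLR1C (chromosome 6, 43517023 to 43529376, plus strand) had 32.6, 32.4, 32.6 and 30.2 CPM in SY351, against 0.381, 0.720, 64.7 and 81.8 CPM in DMSO. DMSO 1 and 2 held it below 1 CPM, and SY351 lay between the pairs. Its log2 fold was -0.21 ± 1.35 against all 4, -1.18 ± 0.16 against DMSO 3 and 4 and 5.72 ± 0.23 against DMSO 1 and 2. POLR1D (chromosome 13, 27620742 to 27667411, plus strand) had 140, 135, 133 and 131 CPM in SY351 and 165, 161, 133 and 169 CPM in DMSO. It did not pass the test against all 4 (-0.22 ± 0.24) or against DMSO 3 and 4 (-0.14 ± 0.16), and was lower against DMSO 1 and 2 (-0.42 ± 0.07).

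The 5 subunits common to the 3 enzymes did not move together. POLR2E, part of the jaw that holds downstream DNA, had 338, 324, 338 and 320 CPM in SY351 and 1272, 1228, 135 and 203 CPM in DMSO. POLR2F, which helps hold the clamp and assemble the enzyme, had 74.1, 66.4, 64.1 and 63.1 CPM in SY351 and 128, 134, 31.7 and 41.0 CPM in DMSO. POLR2L, a small zinc-binding subunit of the assembly platform, had 171, 159, 147 and 153 CPM in SY351 and 340, 317, 49.8 and 46.0 CPM in DMSO. In all 3 genes SY351 lay above DMSO 3 and 4 and below DMSO 1 and 2. Their log2 folds against DMSO 3 and 4 were 0.99 ± 0.17 for POLR2E, 0.90 ± 0.17 for POLR2F and 1.74 ± 0.17 for POLR2L, and against DMSO 1 and 2 they were -2.06, -1.11 and -1.20. The interval counted for POLR2F spans 88218 bases, introns included.

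POLR2H, another common subunit, had 17.9, 15.6, 18.8 and 15.3 CPM in SY351 and 6.15, 2.00, 21.7 and 27.9 CPM in DMSO. POLR2K, the smallest zinc-binding subunit, had 27.8, 24, 25.5 and 27.2 CPM in SY351 and 0.282, 0.176, 27.5 and 36.4 CPM in DMSO. Here DMSO 1 and 2 lay below SY351, the reverse of the other 3 common subunits. POLR2H was lower against DMSO 3 and 4 (-0.53 ± 0.16) and higher against DMSO 1 and 2 (1.90 ± 0.43). POLR2K did not pass the test against DMSO 3 and 4 (-0.27 ± 0.16) and was higher against DMSO 1 and 2 (6.67 ± 0.21). None of the 5 passed the test against all 4 controls, where their log2 folds ran from -1.10 to 0.70.

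The promoter window of POLR2F is shown as that of a common subunit that rose against DMSO 3 and 4. Besides the motifs named for POLR3A, the search took the palindrome GCGCA followed by TGCGC, the core bound by NRF1, and TATAAA, the TATA box, again on both strands. POLR2F is at chr22:37953449-37953748, plus strand (RefSeq, GRCh38.p14).
POLR2F: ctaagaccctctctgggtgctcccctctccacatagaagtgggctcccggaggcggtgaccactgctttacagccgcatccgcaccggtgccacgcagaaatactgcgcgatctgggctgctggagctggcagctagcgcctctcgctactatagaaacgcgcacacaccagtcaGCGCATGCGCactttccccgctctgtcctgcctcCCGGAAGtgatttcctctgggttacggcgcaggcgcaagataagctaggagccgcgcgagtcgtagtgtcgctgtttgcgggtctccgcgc
The NRF1 core was in 2 of the 22 subunit windows (9.09%), those of POLR2F and POLR2H, which had opposite directions against DMSO 3 and 4, and in 1.23% of all windows. TATAAA was in 1 (4.55%), that of POLR2M, and in 11.6% of all windows. These shares too are of unlike sets.

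The gap between the DMSO pairs differed from gene to gene and was correlated with base composition. The mean of DMSO 1 and 2 was under 0.1 of that of DMSO 3 and 4 for 5 genes, POLR1C, POLR2B, POLR2G, POLR2K and POLR3B, and above 2 times for 6, POLR2E, POLR2F, POLR2I, POLR2J, POLR2L and POLR3E. The share of all genes past these limits was not counted, so the counts cannot be read as particular to the subunits. For the log2 ratio of DMSO 1 and 2 to DMSO 3 and 4, CPM were summed over each pair and 0.5 was added to each sum. GC content was taken over the 600 nt of the transcript where it is highest. Across the 29 genes the ratio rose with GC content, at a Spearman rho of 0.73 and a Pearson r of 0.73. Over 15114 genes with a transcript the values were 0.63 and 0.59. These correlations run across genes within the same libraries, and genes are not independent replicates. POLR2K, with 39.5% GC, and POLR2E, with 67.2%, sit near the ends, and POLR1C, with 53.8%, had a ratio of -6.52. The part of base composition in the comparisons with SY351 was not tested.

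**Figure D3:**
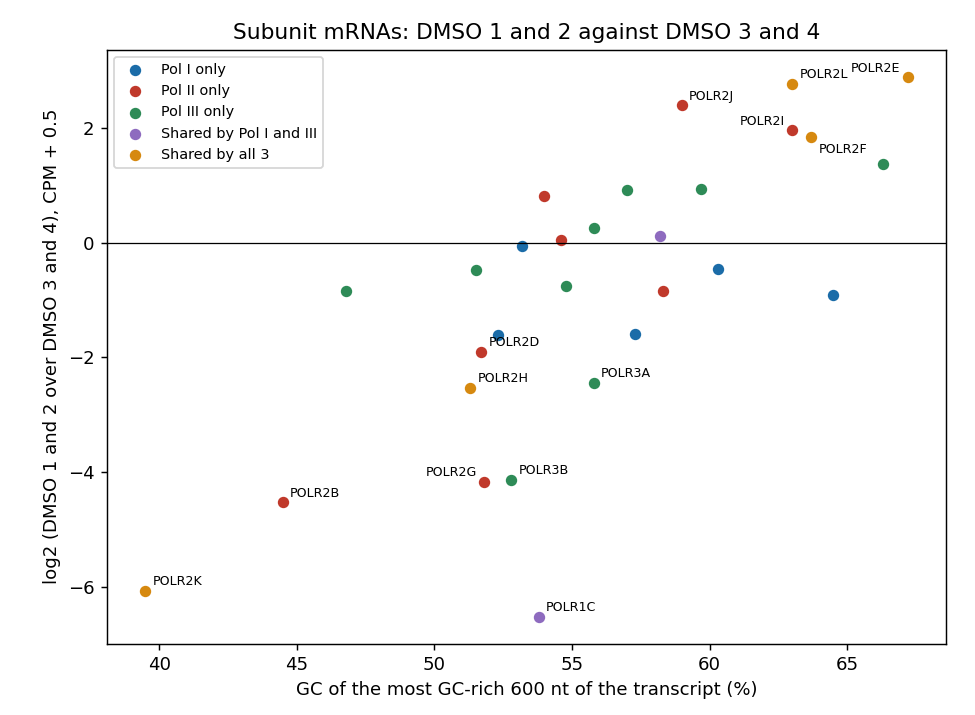
Log2 ratio of DMSO 1 and 2 to DMSO 3 and 4 (CPM summed over each pair, + 0.5) against GC content (%) in the richest 600 nt of the transcript, 1 point per subunit gene, coloured by class. The ratio is below -6 for POLR1C and POLR2K and reaches 2.89 for POLR2E.

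The authors' deposited splicing table, which compares SY351 with control over 6716 local splicing variations in 3700 genes, held 16 variations in 8 subunit genes. A variation is a set of junctions that share an exon, and each junction has an expected inclusion between 0 and 1 with the probability that it changed by more than 0.2. Of the tested subunits 27.6% had a variation in the table, beside 18.9% of all tested genes. A probability of at least 0.95 was reached by 8 of the 16 variations, beside 55.7% of all in the table, and these lay in 5 of the 8 genes, beside 64.2% of the 3700 genes: POLR1B, POLR1C, POLR1D, POLR2B and POLR3F. The single variations of POLR2D and POLR3A and the 3 of POLR3G did not reach it. Of the 5 common subunits 0 had a variation in the table. The sources used here do not say which libraries stand behind the authors' means, so these values have no SD.

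In the authors' deposited table POLR2B had the largest difference: a junction not in the annotation had an inclusion of 0.879 in SY351 and 0.039 in control, while a retained intron had 0.008 in SY351 and 0.761 in control. In the authors' table POLR1D went the other way, with an intron retained at 0.519 in SY351 and 0.229 in control. POLR1C gained an annotated junction (0.560 in SY351 and 0.036 in control, authors' table), and the intron of its other variation had 0.225 in SY351 and 0.027 in control at a probability of 0.539. Retained introns were thus seen in 3 of the 16 variations (18.8%), beside 18.2% of all in the table, and moved both ways.

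POLR1B held 6 of the 16 variations, 4 of them at 0.95 or above in the authors' deposited table. In variation 5 an annotated junction had 0.414 in SY351 and 0.938 in control, and a junction not in the annotation had 0.345 in SY351 and 0.019 in control. In variation 3 a junction not in the annotation had 0.377 in SY351 and 0 in control. POLR3F likewise gained a junction not in the annotation, with 0.400 in SY351 and 0.001 in control, in the authors' table. The largest gain was at a junction outside the annotation in 10 of the 16 variations (62.5%), beside 47.1% of all in the table. Of the 5 genes with a variation at 0.95 or above, POLR1B, POLR1C, POLR2B and POLR3F were lower in mRNA against DMSO 3 and 4. POLR1D did not pass that test. In that comparison 55.2% of the 29 subunits and 26.4% of all genes were lower. None of the 5 passed the test against all 4 controls. Against DMSO 1 and 2 POLR1B and POLR1D were lower, POLR1C and POLR2B were higher, and POLR3F did not pass. A link between splicing and mRNA level was not tested.

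**Figure D4:**
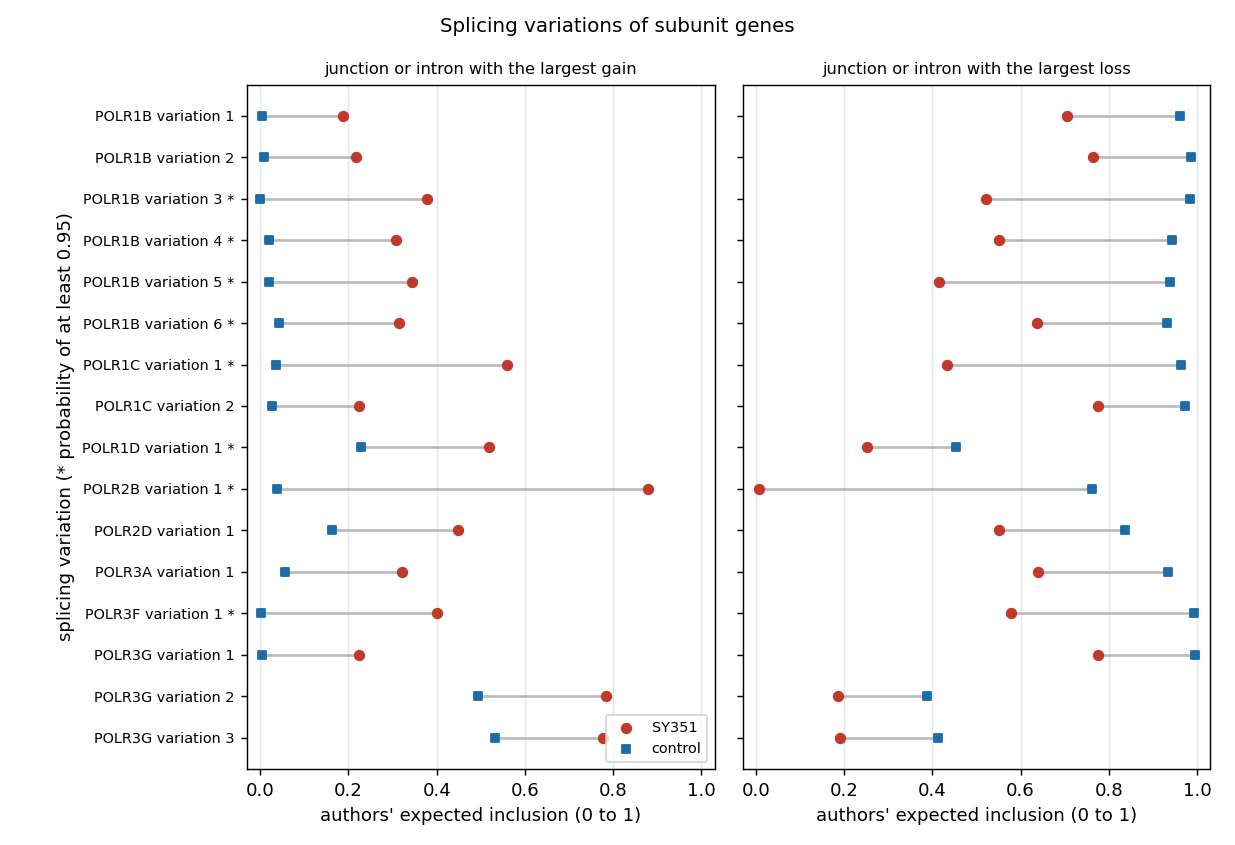
Authors' expected inclusion (0 to 1) of the junction or intron with the largest gain and the largest loss in each of the 16 splicing variations of subunit genes, SY351 as circles and control as squares. An asterisk marks a probability of at least 0.95. POLR2B shows the widest gap, 0.879 in SY351 against 0.039 in control.

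The counts of factors below stand beside 13.6% of all genes lower and 2.91% higher against all 4 controls, 26.4% and 21.9% against DMSO 3 and 4, and 38.4% and 40.8% against DMSO 1 and 2. Among factors that work with polymerase I, 1 of 7 tested genes fell against all 4 controls and 0 rose, while 3 fell and 1 rose against DMSO 3 and 4, and 2 fell and 4 rose against DMSO 1 and 2. UBTF, which binds ribosomal DNA for polymerase I, had 111 to 122 CPM in SY351 and 202 to 428 CPM in DMSO, with a log2 fold of -1.49 ± 0.34 (adjusted p = 0.0217, edgeR). Among the factors of polymerase III 6 of 15 fell and 0 rose, while 8 fell and 2 rose against DMSO 3 and 4, and 12 fell and 3 rose against DMSO 1 and 2. BRF2, the TFIIIB subunit used at U6-type promoters, had 2.56 to 3.65 CPM in SY351 and 11.4 to 30.8 CPM in DMSO, a log2 fold of -2.82 ± 0.41. SNAPC2 and SNAPC1, subunits of the complex that binds the same promoters, had log2 folds of -3.77 ± 0.72 and -1.35 ± 0.28, and all SY351 libraries lay below all DMSO libraries for both.

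Among general factors of polymerase II other than TFIIH 2 of 10 fell and 0 rose, while 6 fell and 2 rose against DMSO 3 and 4, and 5 fell and 4 rose against DMSO 1 and 2. TBP, which serves all 3 enzymes, had 9.42 to 11.9 CPM in SY351 and 15.7 to 34.3 CPM in DMSO, with a log2 fold of -1.20 ± 0.31, and GTF2E2, a subunit of TFIIE, had -1.46 ± 0.41. Of 10 phosphatases and readers of the C-terminal tail 5 fell and 0 rose, while 6 fell and 1 rose against DMSO 3 and 4, and 8 fell and 0 rose against DMSO 1 and 2. PCIF1, which methylates the base next to the mRNA cap and binds the tail, had 6.51 to 7.44 CPM in SY351 and 36.2 to 80.6 CPM in DMSO, a log2 fold of -3.08 ± 0.33. The tail phosphatase CTDSP2 had -1.67 ± 0.31 and the tail reader SCAF8 -1.35 ± 0.26. Of 11 assembly and import factors 1 fell and 0 rose against all 4 controls, RPAP1 at -2.14 ± 0.43, while 2 fell and 5 rose against DMSO 3 and 4, and 5 fell and 3 rose against DMSO 1 and 2. Of 3 genes of the mitochondrial machinery 1 fell, the polymerase POLRMT at -2.99 ± 0.79, while 2 fell and 0 rose against DMSO 3 and 4, and 1 fell and 1 rose against DMSO 1 and 2. POLRMT had 44.2 to 46.4 CPM in SY351, 68.4 and 87.4 CPM in DMSO 3 and 4, and 600 and 678 CPM in DMSO 1 and 2. Against DMSO 3 and 4 the log2 folds of TBP and GTF2E2 were -1.49 and -0.58, and against DMSO 1 and 2 -0.95 and -2.14. PCIF1, CTDSP2 and SCAF8 had -2.55, -1.22 and -1.06 against DMSO 3 and 4, and -3.60, -2.14 and -1.72 against DMSO 1 and 2. RPAP1 and POLRMT had -1.21 and -0.76 against DMSO 3 and 4, and -2.84 and -3.97 against DMSO 1 and 2.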

How the data were processed

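RNA was extracted with TRIzol and enriched for poly(A), and an Illumina TruSeq kit was used for the libraries, per the labels' protocols. The authors deposited whole-number read counts per RefSeq transcript made with featureCounts 1.6.2 at strand setting 1, per the file headers, over 1 interval that includes introns. Per the submitters' processing notes the genome is GRCh38 and DESeq2 was among the tools. The sources used here do not say whether the kit keeps strand, so reads of antisense genes may not be separable, nor how technical repeats entered a column. Of 18093 rows, 17871 were matched to symbols through RefSeq, 132 through GENCODE 29, and 90 kept their identifier; 14 second rows of a symbol were set aside.

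The test was that of edgeR 4.0.16 under R 4.3.3 (TMM, filterByExpr, robust glmQLFit and glmQLFTest, group as the only term, two-sided). The SE of a log2 fold was taken as its size over the square root of F. Alternatives were DESeq2 1.42.0, other scalings and filters, a replicate block, leaving out each library, and each DMSO pair alone, the last added after seeing the data. No library pair agreed within sampling noise: chi-square per degree of freedom was at least 12.5. Values per library were given for the 2 largest subunits of each enzyme, the shared subunits, POLR3G, POLR3GL and genes past the threshold, and in each pathway list for up to 3 genes with the smallest adjusted p. 1 more gene that the symbols would take in is not reported here, nor counted among the subunits. The members, lists and tests were chosen with earlier results of these data known.

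The second file is the authors' deposited splicing table, with inclusion, difference and probability columns. Its difference is control minus SY351, checked against both inclusion columns, and only inclusions are printed. Its coordinates were not used here because its build differs from that of the counts, and the name of its folder has the words no outliers in it.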

Additional observations from a re-analysis of the deposited data

Results flagged for a closer look

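Of 58 groups of 4 libraries checked, 3 had a library far from the other 3, and chance alone flags about 1 in 20. POLR1C had 30.2 CPM in SY351 4, against 32.4 to 32.6 CPM in the other SY351 libraries. POLR3A had 19.3 CPM in SY351 4, against 21.3 to 21.4 CPM in the other SY351 libraries. POLR2G had 97.6 CPM in SY351 1, against 82.1 to 84.5 CPM in the other SY351 libraries. SY351 4 was the shallowest library, with 43.3 M counts. All 3 gaps were small beside the gaps between the DMSO pairs for the same genes.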

How the results depend on the processing

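Counts of genes called depended on the controls. Over all genes, higher and lower, they were 450 and 2100 with the edgeR test on all 8 libraries, 1377 and 3806 with DESeq2, 3466 and 4172 with DMSO 3 and 4 only, 6372 and 5996 with DMSO 1 and 2 only, and 2065 and 6848 with DMSO 3 and 4 and library totals. Library totals on all 8 gave 215 higher. Leaving out 1 library gave 61 to 1885 higher and 473 to 3438 lower. Among subunits 1 was higher and 5 lower, against 2 and 2 with library totals, 2 higher at 1 CPM or more in 4 libraries, 9 and 16 with DMSO 3 and 4, 11 and 14 with DMSO 1 and 2, and 8 and 19 with DMSO 3 and 4 and library totals. Leaving out 1 library gave 0 to 2 higher and 1 to 6 lower, and DESeq2 gave 1 and 8.

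The replicate block called 0 genes in either direction, subunits included. Deviations of same-numbered libraries from their group mean correlated at -0.177 to 0.00647. In DMSO these deviations include the gap between the pairs, which can hide a pairing, so whether the numbers pair libraries stays unsettled. The block turned the log2 folds of POLR1C to 2.31, POLR1E to 0.17 and POLR2L to 0.33. For POLR3G against POLR3GL it gave 0.74 (exact sign-flip permutation p = 0.375), and with DMSO 3 and 4 only the difference turned to -0.11 (exact permutation p = 0.267, smallest possible 0.0667).

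Log2 folds that turned with DMSO 1 and 2 only were POLR1C 5.72, POLR1E 0.79, POLR1G 0.25, POLR2D 0.60, POLR3A 0.73 and POLR3B 1.97. With DMSO 3 and 4 only, by TMM and by library totals, they were POLR2B -0.60 and -1.03, POLR2E 0.99 and 0.58, POLR2F 0.90 and 0.47, POLR2H -0.53 and -0.96, POLR2I 0.89 and 0.45, POLR2J 0.82 and 0.40, POLR2K -0.27 and -0.70, POLR2L 1.74 and 1.28, POLR3GL 0.45 and 0.03, and by totals only POLR2C -0.25 and POLR3G -0.06. Library totals on all 8 turned POLR2B to -0.06, POLR2F to 0.03, POLR2H to -0.07, POLR2L to 0.21 and POLR3GL to 0.09, and the filter at 1 CPM turned POLR3GL to 0.01. Leaving out 1 library gave ranges that crossed 0 for POLR1C (-0.62 to 0.56), POLR1E (-0.39 to 0.33), POLR1G (-0.39 to 0.14), POLR2B (-0.07 to 1.05), POLR2H (-0.14 to 0.79), POLR2L (-0.55 to 0.19) and POLR3GL (-0.26 to 0.13), the sign turning without 1 of the DMSO libraries. The cause was not tested. Splicing variations of subunits numbered 11 at a probability of 0.90 and 6 at 0.99, against 8 at 0.95.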

Other observations

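The subunit genes that fell against DMSO 3 and 4 had longer transcripts than those that rose. The 16 that fell had a median transcript length of 3470 nt (878 to 12749), and the 9 that rose had 892 nt (348 to 2831). Over all genes with a transcript the medians were 2997 nt for the 4087 that fell and 2297 nt for the 3377 that rose. The median counted interval was 17504 bases for the subunits that fell and 8803 bases for those that rose. These are descriptions, and the part of length in the results was not tested.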
